A study of Mus musculus with 6 samples.

Results

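Inhibitory signalling in the retina depends on a small set of genes that make and move GABA and glycine, and 4 of them were followed in the embryonic mouse retina: Gad1, Gad2, Slc32a1 and Slc6a9. They were taken by name, as the genes of inhibitory transmitter synthesis, vesicular loading and membrane transport, from a table of 55487 counted genes. All 4 were present and passed the filter on low counts that left 17275 genes for testing. No measured value entered the choice of the 4, although earlier results of these data were known when they were chosen.

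GABA is made from glutamate by glutamate decarboxylase, an enzyme encoded by Gad1 and Gad2 that uses pyridoxal phosphate as cofactor. Slc32a1 encodes the vesicular transporter that loads both GABA and glycine into synaptic vesicles, and Slc6a9 encodes a plasma membrane glycine transporter. In the retina these genes are known from amacrine and horizontal cells, the inhibitory interneurons, of which glycinergic amacrine cells use Slc6a9 rather than the glutamate decarboxylases. At late embryonic stages such cells are being born and are differentiating.

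RNA came from retinas of C57BL/6 embryos at embryonic day 16.5, with the left and right eyes of an animal combined and all animals from the same litter. There were 3 libraries labelled Foxp1 cKO, from animals with loxP-flanked Foxp1 alleles and a Cre under Six3 control, which acts in the developing retina. Another 3 libraries were labelled control, from littermates with the flanked alleles and without Cre. By label, control 1, control 2 and cKO 1 are female and the remaining animals are male. The libraries are separate animals and held 23707761 to 25714620 counts each. The comparison asks what loss of the forkhead factor Foxp1 does to expression in this tissue.

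The labels met contradictions that touch every direction given here. Foxp1 itself ranged from 41.1 to 50.8 CPM (read counts scaled to a common library size, with TMM factors) in control-labelled libraries and from 68.8 to 75.5 CPM in cKO-labelled ones. The authors' deposited table gives Foxp1 a log2 fold change of -0.60 for cKO against control, the opposite sign. Counts of Xist and of the Y-linked genes Ddx3y and Uty went against the labelled sex in control 2 and cKO 2. By these counts control-labelled libraries 1, 2 and 3 were female, male and male, the labelled sexes of cKO 1, 2 and 3. In turn cKO-labelled libraries 1, 2 and 3 were female, female and male, the labelled sexes of control 1, 2 and 3. Exchanging the 2 groups as wholes would match the sex counts, and the deposited signs for Foxp1 and the 4 genes. It would also reverse every direction given here. Whether the groups were exchanged was not tested. Groups are therefore named as labelled, and values of the 4 genes and of Slc12a5 are given with and without control 2 and cKO 2. The fit without these libraries has 2 libraries per group and called 9 of 17426 genes, against 135 of 17275 in the main test. It therefore cannot decide whether a result rests on the libraries left out. Leaving out control 2 and cKO 2 does not remove the Foxp1 contradiction. Foxp1 was at 50.8 and 46.2 CPM in control 1 and 3, against 72.4 and 68.8 CPM in cKO 1 and 3. The retinal progenitor and neuron markers summed to 2827 to 2914 CPM in the libraries labelled control and 2874 to 3123 CPM in those labelled cKO. Of 5 markers of forebrain inhibitory neurons, 4 averaged under 1 CPM, and the 5 summed to 3.95 to 5.48 CPM.

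Because the glutamate decarboxylases are related enzymes, the longest identical stretch between any of the 8 annotated Gad1 transcripts and any of the 2 annotated Gad2 transcripts was found, to see whether reads of one could be counted for the other. It is 17 bases long, lies in the coding sequence of both genes in the same reading frame, and is far shorter than the 150-base reads. Read 5′ to 3′ on the plus strand from the GENCODE M21 transcripts, the stretch shared by Gad1 (mm10, chr2:70593454-70593470) and Gad2 (chr2:22673966-22673982) is printed here, with the codon for lysine in capitals. The cofactor is attached to the enzyme through a lysine.
Gad1 and Gad2: cctcacAAGatgatggg

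Between the labelled genotypes, none of the 4 genes passed an edgeR adjusted p of 0.05 over all tested genes, against 0.781% of tested genes (135 of 17275). Gad1 had an unadjusted edgeR p under 0.05, as did 16.5% of tested genes. The limma-voom test called none of the 4 either. DESeq2 did not call Gad2 and gave no adjusted p for Gad1, Slc32a1 and Slc6a9, so it could not call them. The median log2 fold change of the 4 was -0.09, with 1 positive and 3 negative, beside 0.00 (0.0007) over all tested genes. In bulk tissue, fewer cells of a type and less RNA per cell cannot be told apart.

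Gad2, the more abundant of the decarboxylase genes, was nearly level (ENSMUSG00000026787, chromosome 2, 22622205 to 22693874, plus strand, mm10). It stood at 56.8, 61.9 and 55.9 CPM in control-labelled libraries 1, 2 and 3, against 61.3, 61.7 and 60.0 CPM in cKO-labelled libraries 1, 2 and 3. The groups overlapped, since control 2 was the highest of all 6 libraries. The group means were 58.2 ± 3.26 CPM and 61.0 ± 0.92 CPM (SD, n = 3 each). The log2 fold change was 0.07 ± 0.05 (standard error), and the edgeR adjusted p was 0.563. Its 95% interval ran from -0.04 to 0.18, a ratio of 0.973 to 1.13. Without control 2 and cKO 2 the log2 fold change was 0.11 (edgeR adjusted p 0.759).

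Gad1 showed the largest difference of the 4 (ENSMUSG00000070880, chromosome 2, 70553072 to 70602014, plus strand, mm10). Counts were low, 121 to 175 per library, so each value carries more counting error than those of the other 3 genes. Its levels were 7.32, 6.93 and 7.25 CPM in control-labelled libraries 1, 2 and 3, against 4.81, 5.03 and 6.91 CPM in cKO-labelled libraries 1, 2 and 3. The groups did not overlap, as in 20.1% of tested genes, but cKO 3 stood beside control 2 while cKO 1 and cKO 2 were lower. The means were 7.17 ± 0.21 CPM and 5.59 ± 1.15 CPM (SD, n = 3 each). The log2 fold change was -0.36 ± 0.14 (standard error), with an unadjusted p of 0.018 and an edgeR adjusted p of 0.196. The unadjusted 95% interval was -0.65 to -0.07, a ratio of 0.637 to 0.955. Without the library labelled cKO 3 the log2 fold change was -0.54 (edgeR adjusted p 0.130), and without control 2 and cKO 2 it was -0.31 (edgeR adjusted p 0.738).

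Slc32a1, the vesicular transporter, overlapped between groups (ENSMUSG00000037771, chromosome 2, 158610767 to 158615748, plus strand, mm10). Its levels were 24.8, 29.2 and 28.9 CPM in control-labelled libraries 1, 2 and 3, against 24.6, 24.1 and 27.1 CPM in cKO-labelled libraries 1, 2 and 3. Control 1 lay with the lower cKO libraries and cKO 3 lay above it. The means were 27.6 ± 2.48 CPM and 25.3 ± 1.61 CPM (SD, n = 3 each), a log2 fold change of -0.13 ± 0.08 (standard error), and the edgeR adjusted p was 0.435. The 95% interval was -0.29 to 0.03. Leaving out control 1 moved the value to -0.20 (edgeR adjusted p 0.327) and leaving out control 2 and cKO 2 moved it to -0.05 (edgeR adjusted p 0.929).

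Slc6a9, the glycine transporter, also overlapped (ENSMUSG00000028542, chromosome 4, 117834506 to 117875198, plus strand, mm10). It was at 12.8, 13.9 and 13.8 CPM in control-labelled libraries 1, 2 and 3, against 13.9, 11.6 and 13.6 CPM in cKO-labelled libraries 1, 2 and 3. The lowest and the highest library both carried the cKO label. The means were 13.5 ± 0.59 CPM and 13.0 ± 1.28 CPM (SD, n = 3 each). The log2 fold change was -0.05 ± 0.10 (standard error), with a 95% interval of -0.25 to 0.14 and an edgeR adjusted p of 0.843. It turned to 0.025 without the library labelled cKO 2 (edgeR adjusted p 0.965) and to 0.045 without control 2 and cKO 2 together (edgeR adjusted p 0.955), so no direction can be given for this gene.

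**Figure D1:**
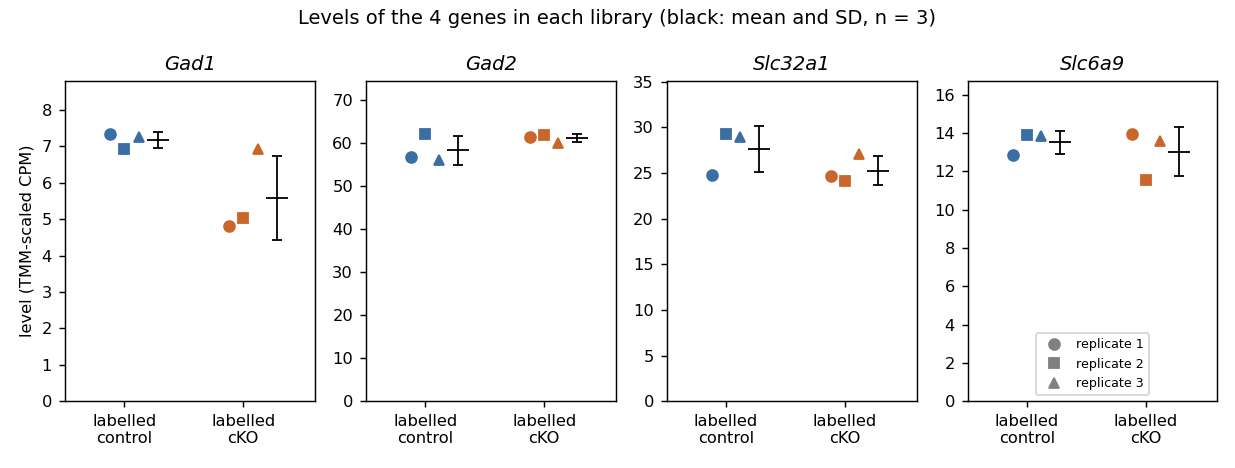
Levels of the 4 genes in CPM (y axis from 0) for each library, by labelled group, with a marker shape for each replicate number and the mean and SD in black (n = 3). Only Gad1 has no overlap between groups, with cKO 3 at 6.91 CPM just under control 2 at 6.93 CPM.

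The authors' deposited table lists the 4 genes with signs opposite to those from the counts, as it does Foxp1. In that table the log2 fold change for cKO against control is 0.30 for Gad1 (standard error 0.20) and -0.07 for Gad2 (standard error 0.08). The authors' deposited table gives 0.07 for Slc32a1 (standard error 0.10) and 0.02 for Slc6a9 (standard error 0.14). An adjusted p is given in the authors' deposited table for Gad2 alone, at 0.628, and it is missing for the other 3. The authors' deposited table therefore does not call Gad2 and could not call the other 3, while the edgeR test called none of the 4. The sources differ on the sign of each gene, which an exchange of the labelled groups would also produce. Whether the groups were exchanged was not tested.

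Levels can be compared between genes only per length of transcript. With the merged length of all annotated exons, Gad2 was highest at 10.1 ± 0.45 CPM per kilobase (SD, n = 6), followed by Slc32a1 at 9.46 ± 0.81 CPM per kilobase (SD, n = 6). Slc6a9 was at 2.58 ± 0.18 CPM per kilobase and Gad1 at 0.83 ± 0.15 CPM per kilobase (SD, n = 6 each). Gad2 and Slc32a1 did not differ beyond their spread, since Gad2 over Slc32a1 was 0.920 to 1.22 across the libraries. The steps down to Slc6a9 and to Gad1 were larger than the spread, with no overlap between their ranges. Among 13849 tested protein-coding genes, the level per kilobase of Gad2 lay at percentile 63.2, Slc32a1 at 61.0, Slc6a9 at 28.2 and Gad1 at 14.6.

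The gap between the decarboxylase genes depends on the transcript length assumed. Gad1 has 7639 bases of annotated exons, 4743 in protein-coding transcripts and 3355 in the longest of these, whereas the lengths for Gad2 are 5876, 5744 and 5744 bases. The median ratio of Gad2 over Gad1 per kilobase was 11.5 with all exons, 7.27 with exons of protein-coding transcripts and 5.14 with the longest such transcript. The order Gad2, Slc32a1, Slc6a9, Gad1 held with all 3 lengths. With all exons the ratio of Gad2 over Gad1 was 10.1, 11.6 and 10.0 in control-labelled libraries 1, 2 and 3, against 16.6, 15.95 and 11.3 in cKO-labelled libraries 1, 2 and 3. In cKO 1 and cKO 2 the ratio was above that of every other library, and cKO 3 lay among the controls. Gad1 is known to be spliced in alternative forms during development, which a count per gene does not separate.

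**Figure D2:**
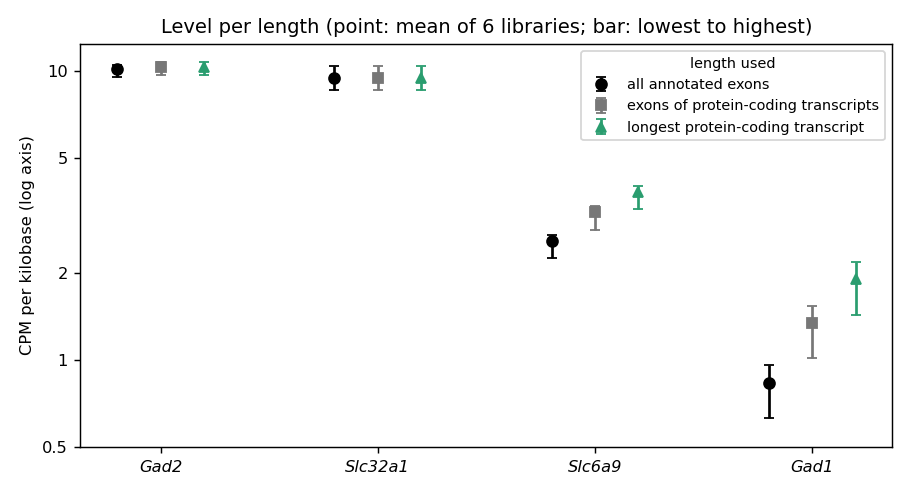
Level per length in CPM per kilobase (log axis) of each gene, as the mean of 6 libraries with bars from the lowest to the highest library, for 3 definitions of length. Gad2 and Slc32a1 overlap near 10 CPM per kilobase, and Gad1 stays lowest with each length, between 0.83 and 1.90 CPM per kilobase.

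Several annotated genes overlap the 4 loci. The antisense gene Gad1os shares no exon bases with Gad1 and had 1 to 9 counts per library, and the microRNA genes Gm23636 and Mir3967 in Gad2 share none either. The antisense gene Gm14205 covers 697 exon bases of Slc32a1 and had 3 to 13 counts. Ccdc24 and B4galt2, on the strand opposite to Slc6a9, share 1429 and 46 exon bases with it, and Gm17114 shares 511. Their counts were 55 to 89 for Ccdc24, 1741 to 2033 for B4galt2 and 0 to 4 for Gm17114. The kit was directional but whether counting used the strand is not given in the sources used here. The levels of Slc32a1 and Slc6a9 are therefore uncertain to the extent that reads on shared bases were set aside.

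The 4 genes did not vary as a block across libraries. Over the 6 libraries, which share their depth range, litter and preparation, the Pearson correlation of log2 CPM was 0.67 between Gad1 and Slc32a1 and 0.65 between Slc32a1 and Slc6a9. It was -0.65 between Gad1 and Gad2 and -0.21 between Gad2 and Slc32a1. The coefficient of variation over the 6 libraries was 17.9% for Gad1, 8.62% for Slc32a1, 7.03% for Slc6a9 and 4.42% for Gad2. Both measures pool the labelled groups. They therefore mix the difference between groups and the counting error, which is largest for Gad1, with variation between animals.

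The genes with the most similar profile were sought among 10220 protein-coding genes of at least 10 CPM, by the same correlation over 6 libraries and as a description only, since so many candidates always yield high values. Nearest to Gad1 were Bicd1, a dynein adaptor (0.99), Dlg1, a scaffold protein (0.98), and Slc12a5, the neuronal chloride exporter (0.98). Nearest to Gad2 were Slc27a3 (0.99), the synaptic membrane protein Lrrtm1 (0.98) and Zbtb2 (0.98). Slc32a1 was closest to Ppfia2, a liprin of the presynaptic zone (0.99), Prr5l (0.98) and the retinoic acid receptor gene Rarb (0.97). Slc6a9 was closest to Gtf2ird2 (0.99), the mitochondrial folate enzyme gene Aldh1l2 (0.99) and the Wnt receptor gene Fzd1 (0.98). No gene appeared for more than 1 of the 4.

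**Figure D3:**
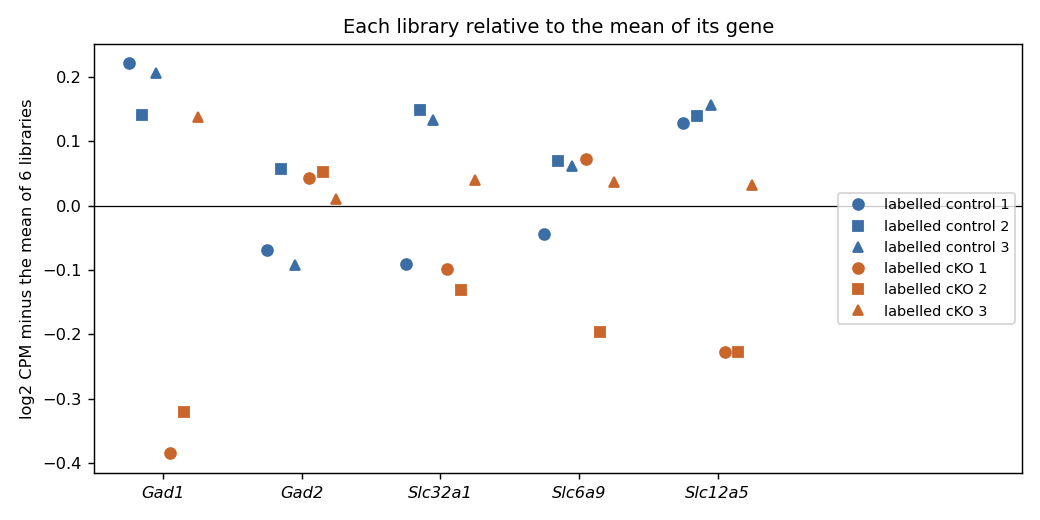
Log2 CPM of each library minus the mean over 6 libraries (y axis) for the 4 genes and for Slc12a5, with colour for the labelled group and shape for the replicate. For Gad1 and Slc12a5, cKO 1 and cKO 2 are lowest and cKO 3 lies nearer the controls, whereas Gad2 spans a narrow range. Slc12a5 is among the genes most correlated with Gad1 over these same 6 libraries, so their likeness is no separate finding.

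The wider pathway was read from a list of 34 genes of GABA and glycine handling, the 4 included, of which 33 were tested. None passed the edgeR adjusted p of 0.05 (0.781% of tested genes), and 10 of 33 had an unadjusted p under 0.05 (16.5% of tested genes). DESeq2 called 1 gene of the list and limma-voom called 0. The log2 fold change was positive for 18 and negative for 15, with a median of 0.01 beside 0.00 (0.0007) over all tested genes. Groups did not overlap for 13 of the 33, against 20.1% of tested genes.

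Among enzymes around glutamate and GABA, no gene passed. Glul, which makes glutamine from glutamate and ammonia, was at 709.8 CPM on average over the 6 libraries, with a log2 fold change of 0.02. Got2, a mitochondrial aspartate aminotransferase, was at 0.00 (0.005). Of the genes that break GABA down, Abat, the GABA transaminase, was at -0.04 and Aldh5a1, which oxidises succinic semialdehyde, at -0.08. Pdxk, a kinase that supplies pyridoxal phosphate to the decarboxylases, was at -0.06.

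Of the other membrane transporters in the list, Slc6a11, which carries GABA, was at -0.09. Slc6a5, the glycine transporter of glycinergic neurons elsewhere in the nervous system, had 1.42 to 2.31 CPM and a difference of 0.24 ± 0.24 (log2, standard error).

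Slc12a5, the potassium chloride exporter that sets the response to GABA in mature neurons, had the lowest p of the list. Its levels were 24.0, 24.2 and 24.5 CPM in control-labelled libraries 1, 2 and 3, against 18.7, 18.8 and 22.4 CPM in cKO-labelled libraries 1, 2 and 3. Every cKO library lay below every control, by least in cKO 3. The log2 fold change was -0.28 ± 0.08 (standard error), and the edgeR adjusted p was 0.0826. Without control 2 and cKO 2 the value was -0.23 (edgeR adjusted p 0.714). Slc12a2, the chloride importer that prevails in immature neurons, was at 55.3 CPM on average with a log2 fold change of -0.04. The glutamine carriers Slc38a1 and Slc38a2 were at -0.09 and -0.11.

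The 5 genes of serine and glycine synthesis and the 4 of glycine cleavage all had positive log2 fold changes, with medians of 0.11 and 0.12. Positive values were found for 8661 of 17275 tested genes, and none of these pathway genes passed. Shmt2, the mitochondrial enzyme that converts serine to glycine, was at 0.04 and Psat1, of the serine pathway, at 0.15. Gldc, the decarboxylase of the glycine cleavage system, was at 0.01 ± 0.06 (standard error) and Dld at 0.12. In the authors' deposited table Gldc was also positive, at 0.02, whereas all other genes of these groups were negative. Across all tested genes, which are not independent replicates, log2 fold changes fell with exon length (Spearman -0.27). With that length trend taken out library by library, these groups had 5 and 4 positive values, with medians of 0.10 and 0.07, and none was called. Gad1 was then at -0.32 and Slc32a1 at -0.17 (edgeR adjusted p 0.345 and 0.356). The genes of these groups belong to related pathways and come from the same libraries, so their shared sign is not a test. The part of exon length was not tested.

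**Figure D4:**
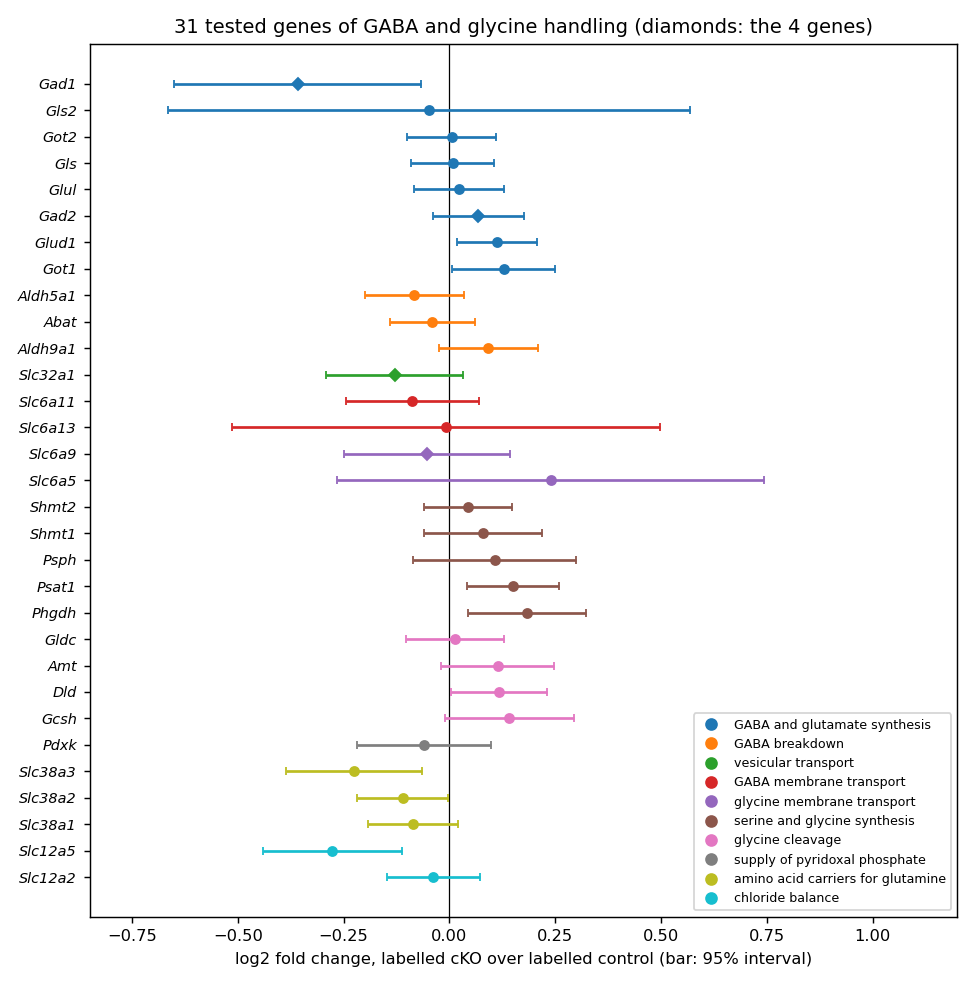
Log2 fold change of labelled cKO over labelled control (x axis) with unadjusted 95% intervals for 31 tested genes of the list, coloured by role, with diamonds for the 4 genes. Gad1 at -0.36 and Slc12a5 at -0.28 lie left of 0. The values of the genes of serine and glycine synthesis and cleavage lie right of it, from 0.01 to 0.18. Several of their intervals include 0, those of Gldc and Shmt2 among them, whereas those of Psat1 and Dld do not.

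Transcription factors of the inhibitory interneurons gave the cellular setting. Of 17 such genes, 2 passed, both lower in the libraries labelled cKO (0.486% of tested genes): Tfap2b of amacrine and horizontal cells (log2 fold change -0.25, edgeR adjusted p 0.033) and Prox1 of horizontal cells (-0.24, edgeR adjusted p 0.017). Neither passed without control 2 and cKO 2 (edgeR adjusted p 0.714 for both). That fit, of 2 libraries per group, called only 9 genes in all, so the loss of these calls says little about them. Foxn4 and Prdm13, which act early in the amacrine lineage, were at 0.03 and 0.06, and Ebf1 at -0.07. The 6 amacrine markers summed to 546 to 556 CPM in the libraries labelled control and 501 to 513 CPM in those labelled cKO, and the 4 horizontal cell markers to 245 to 286 and 220 to 238 CPM. The lower amacrine sum came from the 3 Tfap2 genes of the list. Tfap2b had group means of 213 and 179 CPM, Tfap2a 86.5 and 76.2 CPM, and Tfap2c 15.7 and 12.7 CPM, control-labelled first. The other 3 amacrine markers were level or higher, with Ptf1a at 35.4 and 35.4 CPM, Barhl2 at 80.7 and 81.4 CPM, and Prdm13 at 118.4 and 123.1 CPM.

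Other cell types varied between libraries as well. Summed lens markers ran from 62.4 to 934 CPM in the libraries labelled control and from 17.9 to 261 CPM in those labelled cKO. Erythroid markers ran from 74.3 to 147 CPM and from 111 to 180 CPM, and pigment epithelium markers from 70.1 to 117 CPM and from 39.5 to 116 CPM. Microglial markers summed to 16.8 to 21.0 and 15.0 to 17.9 CPM, and optic nerve glia markers to 15.1 to 17.2 and 7.44 to 15.2 CPM. Mesenchymal markers summed to 62.4 to 115 and 97.3 to 170 CPM, and skeletal muscle markers to 6.36 to 29.2 and 5.78 to 10.7 CPM. Endothelial markers ran from 328 to 353 CPM and from 297 to 306 CPM, nearly all of it Kdr, which retinal progenitors also express. No listed marker had 0 counts in all libraries. The part of these cells, and of the amacrine and horizontal marker sums, in the values of the 4 genes was not tested.

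**Figure D5:**
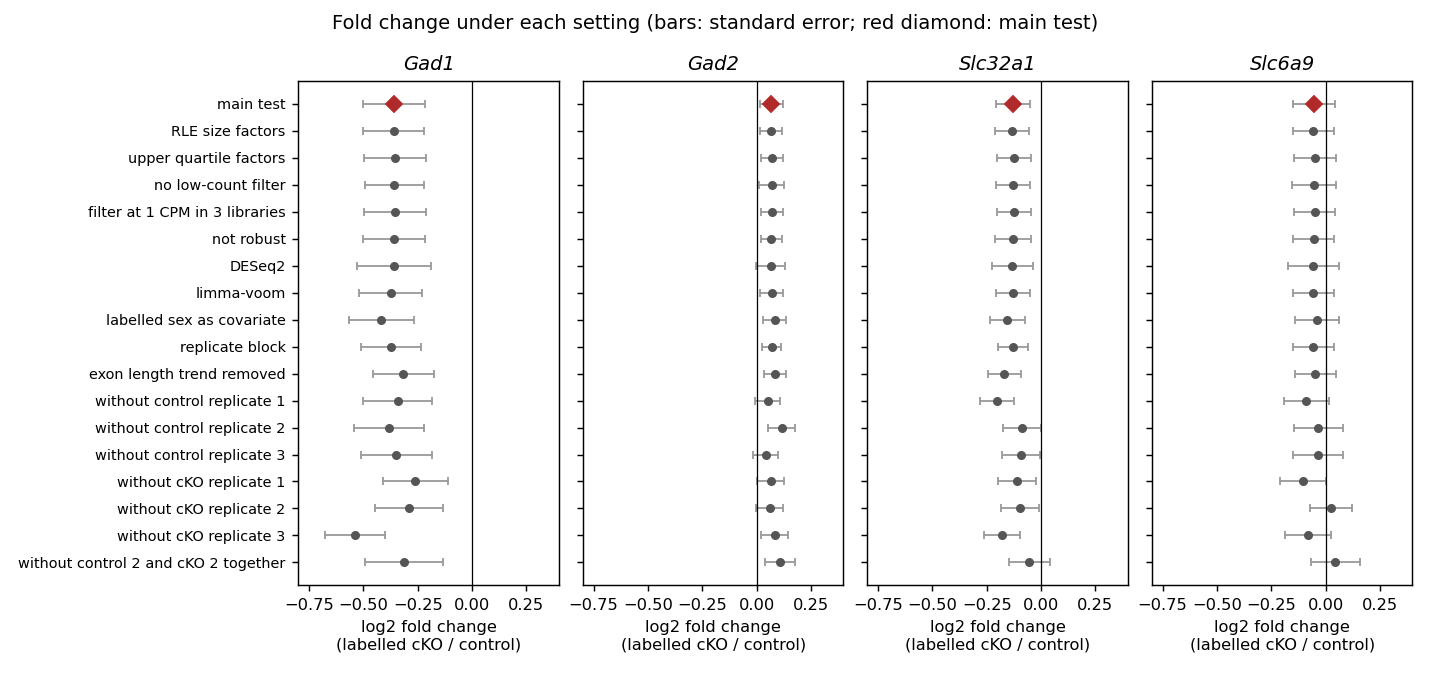
Log2 fold change of labelled cKO over labelled control (x axis) for each gene under the main test (red diamond) and 17 alternatives (grey), with bars of 1 standard error. Gad1 stays left of 0, between -0.54 and -0.26, Gad2 stays right of it, between 0.04 and 0.12, and Slc6a9 crosses it.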

How the data were processed

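Raw whole-number read counts, a column per library, were deposited by the authors, per the file headers. The authors' deposited comparison table holds, per its headers, the mean normalized count (a signal value), the log2 fold change and its standard error, the test statistic (a score), the p-value and the adjusted p-value. The submitters' processing notes name the mm10 build, DESeq2 1.32.0, featureCounts 1.5.1, STAR 2.7.6a and cutadapt 2.8. Their settings, strand included, are not given in the sources.

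Sample descriptions in the labels linked each count column to its sample. Names came from the authors' table, and positions and exon lengths from GENCODE M21 on the same build, which held 55227 of 55487 genes. edgeR 4.0.16 (R 4.3.3) compared the labelled groups over all 6 libraries: filterByExpr, TMM, robust quasi-likelihood tests and Benjamini-Hochberg adjustment at 0.05. Standard errors are the fold change divided by the square root of F, and 95% intervals from the matching t distribution. Library totals were 23707761 to 25714620, and library pairs within a group differed beyond sampling noise (chi-square per degree of freedom 7.39 to 12.5). Correlations used log2(CPM + 0.5). The scripts were tested on simulated counts, where the edgeR test recovered 34% of 50 genes changed 1.25-fold and 82% of 50 changed 1.5-fold. Of 168 calls in the simulation, 16 were false. Small changes can therefore be missed by the main test.

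The 4 genes, the lists and the alternatives were chosen with earlier results of these data known. Named list genes are those past the threshold and the 2 most abundant of each role, or the 4 most abundant transcription factors. Some list genes are counted but their own values are not reported here. Phgdh was named after its values were seen, as were the 2 further transcript lengths. Alternatives were RLE and upper quartile factors, other filters, no robust estimation, DESeq2 1.42.0, limma-voom (limma 3.58.1), labelled sex, a replicate block, removal of the exon length trend (lowess, span 0.3) and leaving out libraries. The labelled sex goes against the sex-linked counts in control 2 and cKO 2, so that alternative does not adjust for the sex read from the counts.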

Additional observations from a re-analysis of the deposited data

How the results depend on the processing

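None of the 4 genes was called under any of the 17 alternatives. DESeq2 gave an adjusted p for Gad2 only, with none for the other 3. Gad1 stayed negative in all 17 (-0.54 to -0.26 on the log2 scale), as did Slc32a1 (-0.20 to -0.05), and Gad2 stayed positive (0.04 to 0.12). Slc6a9 turned from -0.05 to 0.025 without cKO 2, within a range of -0.10 to 0.025 when single libraries were left out, and to 0.045 without control 2 and cKO 2 together. The cause was not tested.

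The number of genes called over the whole table, 135 in the main test, was 742 with no filter on low counts, 83 with a filter at 1 CPM, 10 without robust estimation, 514 with DESeq2, 13 with limma-voom and 38 with the exon length trend removed. It ranged from 19 to 778 with single libraries left out, and was 34, 21 and 778 without control 1, 2 and 3, and 361, 19 and 27 without cKO 1, 2 and 3. It was 9 without control 2 and cKO 2 together, with 0 of the pathway list. From the pathway list 0 genes were called in the main test, 2 with no filter (Slc12a5 among them), 1 with DESeq2, and 0 to 2 with single libraries left out: Psat1 and Phgdh without control 3, and 1 gene without cKO 3. The Tfap2b and Prox1 calls were also lost with no robust estimation, with limma-voom and with the length trend removed. The cause of these differences was not tested.

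With the replicate number as a block, 1065 genes were called, and 1 of the pathway list, Slc12a5 (edgeR adjusted p 0.0327). With the replicate block the log2 fold change was -0.37 for Gad1, 0.07 for Gad2, -0.13 for Slc32a1 and -0.06 for Slc6a9, with edgeR adjusted p of 0.126, 0.425, 0.333 and 0.807. Same-numbered libraries deviated together in 2 of 3 pairs (correlations 0.49, -0.23 and 0.58), and 4 of 6 libraries correlated best with their own number. By label and by the sex-linked counts, libraries numbered 1 share their sex, as do those numbered 3, but those numbered 2 do not. The pairs of shared sex were those that deviated together, and the part of sex in this was not tested. The labels tie the numbers to nothing else, and not every pair deviated together, so the main test has no block. Low counts limit Gad1 most, with 121 to 175 counts per library.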
